A study of Mus musculus with 22 samples.

Results

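Tmem252, Tgm2 and Map3k8 were 3 genes that LPS raised in the mouse hypothalamus and that were lower after LPS in mice labelled as knockouts of the cytokine interleukin-6 (IL-6 KO) than in wild-type mice. They were chosen by these measured differences, the LPS effect in each genotype and KO against wild type after LPS, from 19935 genes on an Affymetrix gene array, and were found by symbol. Those differences are therefore given as descriptions, with no test. Each gene was read by 1 probe set.

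The 22 arrays held hypothalamic RNA of male C57bl6 mice, 9 to 12 weeks old, IL-6 KO or wild type (WT), with both genotypes bred from the same parents as littermates. Mice of 2 groups received 120 µg/kg of lipopolysaccharide (LPS) from Escherichia coli into the peritoneum and the others saline, and all were killed after 3 h. There were 7 arrays of KO mice given LPS, 7 of WT mice given LPS, 4 of KO mice given saline and 4 of WT mice given saline. The study asked which genes might account for the fever that KO mice lack; the labels do not say which part of Il6 the KO allele changes, nor whether every array came from its own mouse, so the p-values below rest on a spread between arrays that may be technical.

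LPS is sensed by TLR4, whose adaptor Myd88 and downstream kinases switch on NF-kB and the MAP kinases. IL-6, one of the cytokines made in response, signals through its receptor and the shared subunit gp130 to STAT3, and in the brain it is known for its part in fever. Map3k8, also called Tpl2, is a kinase that carries the TLR4 signal to MEK and ERK. It is kept inactive by binding to the NF-kB precursor p105 until IKK releases it. Tgm2 is tissue transglutaminase, an enzyme that cross-links proteins in the presence of calcium and also binds GTP. Tmem252 is a predicted membrane protein.

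The deposited values were log2 values with the median of each probe set over the 22 arrays set to 0, so they give how far an array lay from the median array. They hold no level of a gene, and the label hypothalamus could not be checked against marker levels. Of 14 measured hypothalamic markers, such as Hcrt and Pmch, none was called in any comparison of the groups (limma). Calls were rare among all genes too: in KO against WT after LPS, 0.0201% were called in each direction. There 3 of the 14 had an unadjusted p under 0.05, 1 of them lower in KO, against 11.4% of all genes. For LPS there was 1 in each genotype, against 5.84% of all genes in KO and 6.42% in WT. These counts do not check the dissection. The Il6 probe set did not separate the genotypes: its mean was 0.24 ± 0.20 in KO and 0.07 ± 0.14 in WT after LPS (SD, n = 7 each), a difference of 0.17 (SE 0.07, adjusted p = 0.397, limma). Against saline, Il6 was called higher after LPS in the arrays labelled KO (0.36, SE 0.08, adjusted p = 0.0193, limma) and not in WT (0.21, SE 0.08, adjusted p = 0.457). The interaction, KO effect minus WT effect, was 0.15 (SE 0.12) and was not called (adjusted p = 1, limma). The KO call was lost in 7 of 33 alternatives, among them each array block alone and leaving out KO saline replicate 2 (adjusted p = 0.0597), 3 (0.0873) or 4 (0.0693). A probe set that may lie outside the changed part checks nothing about the labels, and KO below means the arrays labelled IL-6 KO. Arrays are numbered here by the number in their labels, and many genes differed by it. The labels do not say what this number counts, and the split after array 11 was made here. With the 4 groups in the fit, 21.5% of genes were called in the comparison of arrays 12 to 22 with arrays 1 to 11 (adjusted p under 0.05, limma). KO LPS had 5 of its 7 arrays among arrays 12 to 22, and WT LPS 2 of 7. On 6 arrays the choroid plexus gene Ttr or the pituitary genes Gh or Prl lay above 2. These were KO LPS replicates 3 and 5, WT LPS replicates 2 and 5, KO saline replicate 2 and WT saline replicate 1. The markers split by genotype: Gh or Prl passed 2 on the KO arrays among them, and Ttr on the WT arrays. Mean Gh was 1.04 in KO LPS, 0.04 in WT LPS, 1.16 in KO saline and -0.13 in WT saline. Mean Ttr was 0.15, 0.70, -0.05 and 1.23 in the same order. Neither gene was called in KO against WT after LPS (limma).

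Tmem252 lay highest in WT mice given LPS, lower in KO mice given LPS, and lowest after saline in either genotype. In KO LPS arrays its values ran from -0.41 to 0.47 with a median of 0.18, against 0.46 to 0.96 with a median of 0.76 in WT LPS arrays. KO saline arrays lay at -0.78, -0.84, -0.68 and -0.74, and WT saline arrays at -0.67, -0.72, -0.63 and -0.74. Every LPS array lay above every saline array of its genotype, and 6 of 7 KO LPS arrays lay below all WT LPS arrays. The exception was KO LPS replicate 7 at 0.47, just above the lowest WT array at 0.46. How many of all genes separate the groups in this way was not counted, here or for Tgm2 and Map3k8 below. The LPS effect, from which the gene was chosen, was 0.81 (SE 0.12) in KO and 1.41 (SE 0.12) in WT on the log2 scale, or 1.76-fold and 2.66-fold. After LPS, KO minus WT was -0.67 (SE 0.11), a 1.59-fold lower value in KO. In bulk tissue, fewer cells of a type and less RNA per cell cannot be told apart. KO LPS had the widest spread of the 4 groups (SD 0.33), against 0.18 in WT LPS, 0.07 in KO saline and 0.05 in WT saline.

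**Figure D1:**
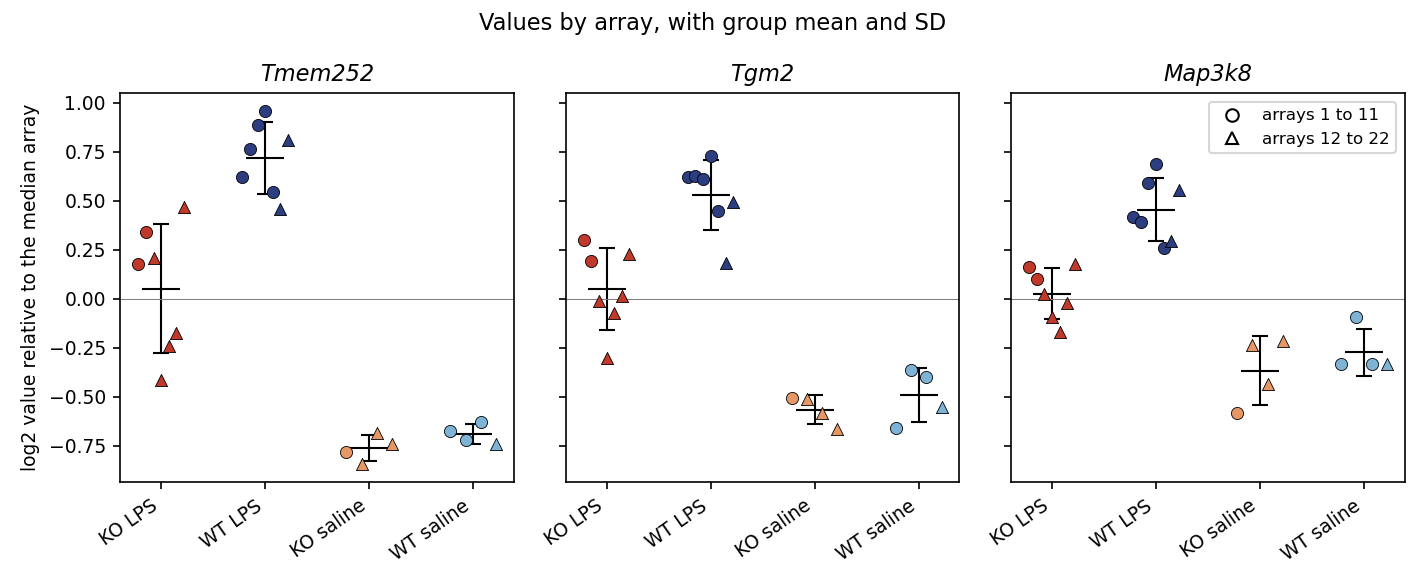
Log2 values relative to the median array (y axis) of Tmem252, Tgm2 and Map3k8 on each array of the 4 groups (x axis). Circles are arrays 1 to 11, triangles arrays 12 to 22, and bars the group mean and SD. For each gene the LPS arrays of a genotype lie above its saline arrays. Map3k8 is the gene whose 7 KO LPS arrays all lie below the 7 WT LPS arrays. The genes were chosen by these differences, so the separation is a description.

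The sequence around the start of Tmem252, from RefSeq on GRCm38.p6, is shown because the 3 genes were high and low on the same arrays; of the 3, it is the one whose promoter was found in the table used here. It spans chr19:24673758-24674057 on the + strand, 250 bases before the start and 50 after it, with the letters TATAA, those of a TATA box, in capitals.
Tmem252: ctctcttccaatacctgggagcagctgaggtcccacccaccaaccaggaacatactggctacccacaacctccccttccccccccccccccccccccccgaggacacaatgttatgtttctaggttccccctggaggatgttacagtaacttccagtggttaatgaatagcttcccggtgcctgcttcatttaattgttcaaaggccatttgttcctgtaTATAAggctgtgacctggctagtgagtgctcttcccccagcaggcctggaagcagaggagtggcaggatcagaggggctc
The TATAA letters begin 30 bases before the start, and 24.9% of 32851 promoters of the same length hold them on one strand or the other. On either strand, the window held no match to the STAT motif TTCNNNGAA (8.3% of promoters), the AP-1 motif TGANTCA (7.81%), the C/EBP motif TTGCNNAA (10.8%) or the NF-kB consensus (4.51%). With 1 match no motifs overlapped, and a missing match says only that these letters are not in this window.

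Tgm2 followed the same order of group means with a smaller span. KO LPS arrays ran from -0.30 to 0.30 with a median of 0.01, against 0.18 to 0.73 with a median of 0.61 in WT LPS arrays. The KO saline values were -0.51, -0.51, -0.58 and -0.67, and the WT saline values -0.66, -0.36, -0.40 and -0.55. LPS and saline arrays did not overlap in either genotype. After LPS the genotypes did overlap: 4 of 7 KO arrays lay below all WT arrays, and WT LPS replicate 6, at 0.18, lay below 3 KO arrays. The LPS effect that the choice rested on was 0.62 (SE 0.10, 1.53-fold) in KO and 1.02 (SE 0.10, 2.03-fold) in WT. KO minus WT after LPS was -0.48 (SE 0.08), 1.39-fold lower in KO.

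Map3k8 had the smallest LPS effects of the 3 genes, and its genotypes did not overlap after LPS. KO LPS arrays ran from -0.17 to 0.18 with a median of 0.02, against 0.26 to 0.69 with a median of 0.42 in WT LPS arrays. The KO saline values were -0.58, -0.24, -0.44 and -0.21, and the WT saline values -0.33, -0.09, -0.33 and -0.33. All 7 KO LPS arrays lay below all 7 WT LPS arrays, with a gap of 0.08 between the nearest arrays. Map3k8 was chosen by this same difference, so the separation is a description and no test. LPS and saline did not overlap within a genotype, though in KO the gap was 0.04. The LPS effect used in the choice was 0.39 (SE 0.09, 1.31-fold) in KO and 0.73 (SE 0.09, 1.66-fold) in WT, and KO minus WT after LPS was -0.43 (SE 0.07), 1.35-fold lower in KO.

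The order of group means was the same for the 3 genes: WT LPS highest, KO LPS next, then WT saline and KO saline. The saline groups overlapped for each gene. Of 4 KO saline arrays, 3 lay below all WT saline arrays for Tmem252, 1 for Tgm2 and 2 for Map3k8. Tmem252 was at -0.76 ± 0.07 in KO and -0.69 ± 0.05 in WT, Tgm2 at -0.57 ± 0.08 in KO and -0.49 ± 0.14 in WT, and Map3k8 at -0.37 ± 0.18 in KO and -0.27 ± 0.12 in WT (SD, n = 4 each). This comparison was not part of the choice, and none of the 3 genes was called in it. The limma spread is pooled over the 4 groups, so it includes the LPS arrays. For Tmem252 these varied more than the saline arrays (SD 0.33 in KO LPS and 0.18 in WT LPS). The intervals and p-values therefore do not measure the spread of the saline arrays alone. The log2 differences, KO minus WT, were -0.07 for Tmem252 (95% interval -0.36 to 0.22, adjusted p = 0.934, limma), -0.07 for Tgm2 (-0.30 to 0.16, adjusted p = 0.915) and -0.09 for Map3k8 (-0.30 to 0.11, adjusted p = 0.869). They moved with the array blocks and with single arrays. Map3k8 was at -0.33 (SE 0.14) in arrays 1 to 11, with 1 KO array, and at 0.04 (SE 0.14) in arrays 12 to 22, with 1 WT array. Without KO saline replicate 1 it was -0.02, and without KO saline replicate 4 it was -0.15. With array block as a term, Tgm2 was at 0.03 (SE 0.10) and Tmem252 at -0.0012 (SE 0.14). Among all genes 1, Abhd1, or 0.00502%, was called between the genotypes after saline.

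The 3 genes were few of many that LPS raised, and most of the few that were lower in KO. At an adjusted p under 0.05, LPS raised 1.08% of genes in KO and 1.42% in WT, and lowered 0.256% in KO and 0.376% in WT (limma). After LPS, 0.0201% of genes were called lower in KO and 0.0201% higher, which is 4 each. Tmem252, Tgm2 and Map3k8 were 3 of the 4 lower ones, as their choice fixed, and Lcn2, lipocalin 2, which withholds iron from bacteria, was the fourth (-1.04, SE 0.17). The 4 called higher were Abhd1, Galnt11, Psmb5 and Mrpl2. The genes near the threshold were looked up only among those that LPS raised in WT and that were lower in KO. Of these, the last just inside it was Tgm2 at -0.48, by the difference that the choice used. Just outside it stood Sbno2 (-0.45, SE 0.09), Akap12 (-0.35, SE 0.07) and Adamts9 (-0.44, SE 0.09). The difference of the LPS effects, KO minus WT, was -0.60 (SE 0.18) for Tmem252, -0.41 (SE 0.14) for Tgm2 and -0.34 (SE 0.12) for Map3k8. In that comparison 0% of genes were called (limma), while 327 had an unadjusted p under 0.05.

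Expressed as a share, the LPS effect in KO was 57.7% of that in WT for Tmem252, 60.3% for Tgm2 and 54% for Map3k8. Over the 284 genes that LPS raised in WT the median share was 83.7%, with quartiles of 67% and 99.4%. Genes with a smaller share than Tmem252 numbered 50, than Tgm2 56 and than Map3k8 33. Lcn2 had a share of 68.1% and the chemokine gene Cxcl10, which had the largest LPS effect, 90.4%. Among the same 284 genes ordered by KO minus WT after LPS, Lcn2 stood at rank 1, Tmem252 at 2, Tgm2 at 3 and Map3k8 at 7. Between them came Osmr, the oncostatin M receptor, Sbno2 and the protease gene Adamts9. The WT LPS arrays enter both the selection of the 284 genes and these differences, so the ranks are a description.

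**Figure D2:**
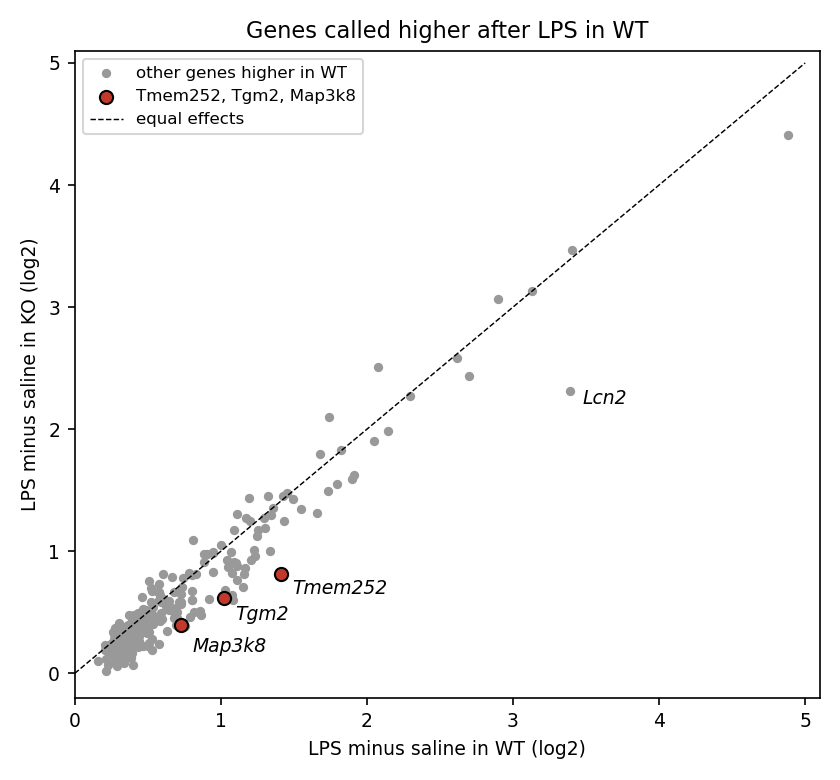
Log2 LPS effect in KO (y axis) against that in WT (x axis) for the 284 genes called higher after LPS in WT, 1 point per gene, with a dashed line where the effects are equal. Tmem252, Tgm2 and Map3k8 lie below the line at shares of 57.7%, 60.3% and 54%, and Lcn2 at 68.1%.

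Tgm2 was called in the comparison by array number. In the fit with the groups, arrays 12 to 22 lay below arrays 1 to 11 by -0.21 (SE 0.06, adjusted p = 0.0194, limma); 10.6% of all genes were called lower in this comparison. The call was lost without KO LPS replicate 1 (-0.18, adjusted p = 0.0688) and without WT LPS replicate 6 (-0.16, adjusted p = 0.0731). The differences were -0.14 (SE 0.09, adjusted p = 0.322) for Tmem252 and -0.03 (SE 0.07, adjusted p = 0.844) for Map3k8.

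With array block as a term, KO minus WT after LPS was -0.61 for Tmem252, -0.39 for Tgm2 and -0.42 for Map3k8. Within arrays 12 to 22 alone it was -0.66, -0.37 and -0.44, and within arrays 1 to 11 alone -0.50, -0.36 and -0.34, in the same gene order. Arrays 1 to 11 hold 1 KO saline array, on which Map3k8 was lowest of all arrays (-0.58). There the Map3k8 LPS effect was 0.72 in KO and 0.72 in WT, and their difference -0.0049. In arrays 12 to 22, which hold 1 WT saline array, that difference was -0.48. Without the 6 arrays with high Ttr, Gh or Prl, KO minus WT after LPS was -0.67 for Tmem252, -0.44 for Tgm2 and -0.44 for Map3k8.

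**Figure D3:**
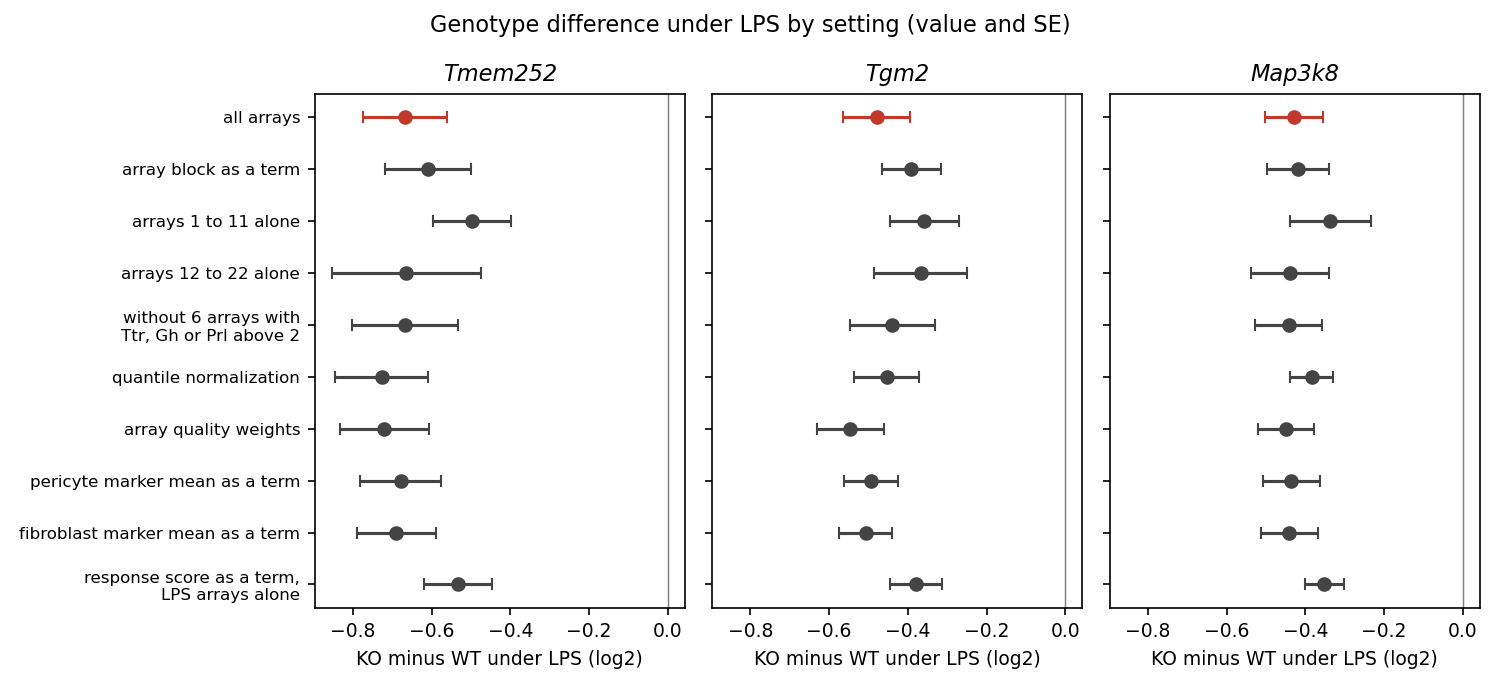
KO minus WT after LPS (x axis, log2 difference with SE) for Tmem252, Tgm2 and Map3k8, 1 line per setting. The top point of each panel uses all arrays as reported, and the points below it change 1 choice each. Every point lies below 0, from -0.73 to -0.50 for Tmem252, -0.55 to -0.36 for Tgm2 and -0.45 to -0.34 for Map3k8. The genes were chosen by this difference on the same arrays, so the sign is a description and no test.

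Within groups, arrays that were high for one of the 3 genes tended to be high for the others. WT LPS replicate 4 was the highest array for each gene, at 0.96 for Tmem252, 0.73 for Tgm2 and 0.69 for Map3k8. KO LPS replicate 4 was the lowest KO LPS array for Tmem252 and Tgm2, at -0.41 and -0.30. With group means removed, Pearson's r over the 22 arrays was 0.731 between Tmem252 and Tgm2, 0.639 between Tmem252 and Map3k8, and 0.591 between Tgm2 and Map3k8. The adjusted p over the 3 pairs was 0.00211, 0.00211 and 0.00465 by permutation within groups, and Spearman's rho was 0.652, 0.599 and 0.563, each with an adjusted p of 0.00839. These values came from the same arrays and RNA, which the 3 genes share. Without the 2 arrays farthest from the median, r was 0.609, 0.616 and 0.537. In arrays 12 to 22 the values were 0.821, 0.717 and 0.706, and in arrays 1 to 11 they were 0.396, 0.64 and 0.709. For these values within blocks, the mean of each group within the block was removed. A group with 1 array in a block was thereby set to 0.

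**Figure D4:**
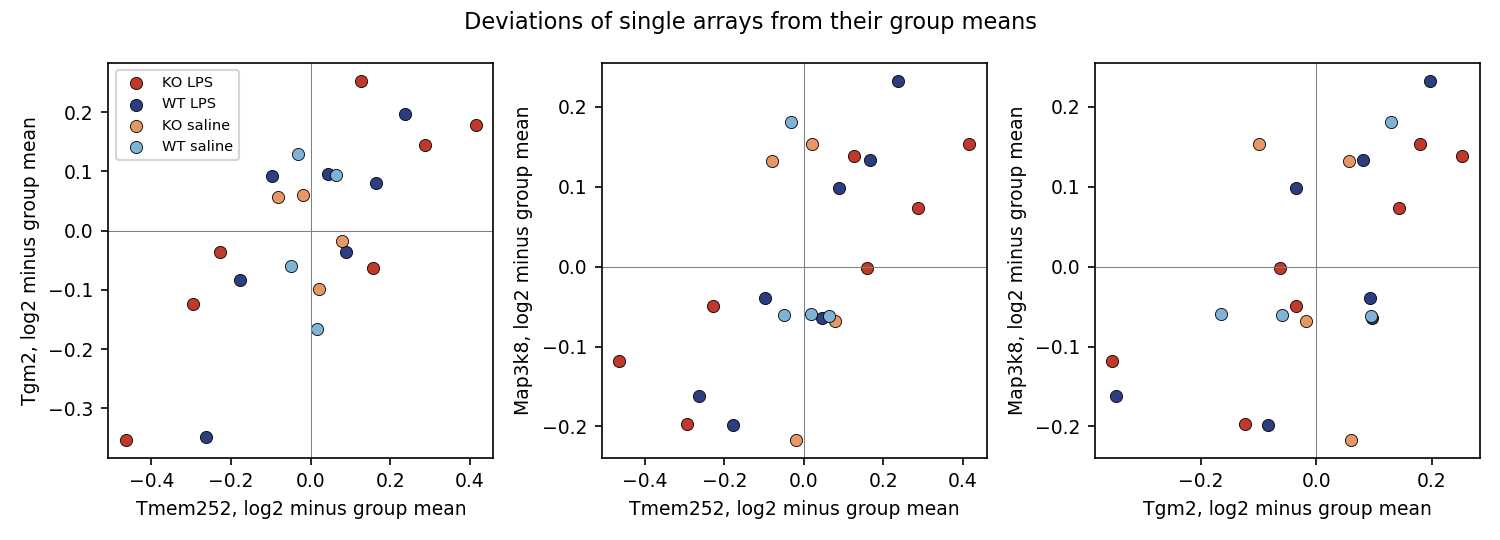
Deviations of the 22 arrays from their group means (log2, both axes) for each pair of Tmem252, Tgm2 and Map3k8, 1 point per array, coloured by group. Arrays above their group mean for one gene tend to be above it for the other, with r of 0.731, 0.639 and 0.591. The LPS arrays span a wider range than the saline arrays for Tmem252.

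The relation was also seen inside each LPS group, though with 7 arrays it rested on few. In KO LPS, r was 0.839 for Tmem252 with Tgm2, 0.873 for Tmem252 with Map3k8 and 0.859 for Tgm2 with Map3k8 (adjusted p = 0.025 each over 6 relations, exact permutation test). In WT LPS the same pairs had 0.801 (adjusted p = 0.025), 0.934 (adjusted p = 0.025) and 0.678 (adjusted p = 0.0831), by the exact permutation test. By rank, rho was 0.714, 0.857 and 0.893 in KO LPS and 0.714, 0.929 and 0.643 in WT LPS; the pairs of Tmem252 and Tgm2 (adjusted p = 0.106 in each group) and of Tgm2 and Map3k8 in WT (adjusted p = 0.139) did not pass, by exact permutation. Leaving out the 2 farthest arrays brought Tmem252 with Tgm2 to 0.549 in KO and 0.343 in WT, and Tgm2 with Map3k8 in WT to 0.299, so those rest on those arrays.

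The 3 genes also moved with the general response of an array to LPS. A response score was the mean over the 191 genes called higher after LPS in both genotypes, with the 3 genes left out. It was 0.10 ± 0.12 in KO LPS (range -0.11 to 0.26), 0.17 ± 0.10 in WT LPS (0.05 to 0.29), -0.67 ± 0.02 in KO saline and -0.65 ± 0.02 in WT saline (SD). The LPS groups overlapped in it. Deviations of the score correlated with those of Tmem252 (r = 0.768, adjusted p = 0.00162, permutation test over 22 arrays), Tgm2 (r = 0.766, adjusted p = 0.00156) and Map3k8 (r = 0.647, adjusted p = 0.00162). Spearman's rho was 0.669, 0.74 and 0.591 (adjusted p = 0.00766, 0.00276 and 0.00766, permutation test). Without the 2 farthest arrays r was 0.571, 0.584 and 0.626. Within arrays 12 to 22 it was 0.778, 0.945 and 0.643, and within arrays 1 to 11 it was 0.789, 0.661 and 0.865. The values within blocks had the mean of each group within the block removed. With the score as a term in the LPS arrays, KO minus WT was -0.53 for Tmem252, -0.38 for Tgm2 and -0.35 for Map3k8.

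Il6 itself had r of 0.65 with Tmem252, 0.496 with Tgm2 and 0.46 with Map3k8 after group means were removed, and none passed (adjusted p = 0.0505, 0.0634 and 0.0527, permutation test over 22 arrays). The Spearman coefficient was 0.401, 0.291 and 0.411 (adjusted p = 0.208, 0.256 and 0.206, permutation test). Without the 2 farthest arrays r was 0.346, 0.211 and 0.412. It was 0.914, 0.963 and 0.811 in arrays 12 to 22 and 0.761, 0.57 and 0.69 in arrays 1 to 11. Here too the mean of each group within the block was removed, and no test was run within blocks. KO LPS replicate 7 was the highest array for Il6, at 0.61, and the highest KO LPS array for Tmem252 and Map3k8.

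The genes most like each of the 3 were found over all 22 arrays, by r of the values, which the LPS difference dominates, and by r of deviations from group means. By values, Tmem252 was most like Akap12 (0.979), Steap4 (0.976), Lcn2 (0.975), Tgm2 (0.971) and Adamts9 (0.971). Tgm2 was most like Tmem252 (0.971), Lcn2 (0.966), Akap12 (0.965), Map3k6 (0.963) and Steap4 (0.96). Map3k8 was most like Tmem252 (0.948), Steap4 (0.947), Adamts9 (0.943), Map3k6 (0.942) and Tgm2 (0.94). Akap12 is an anchoring protein for protein kinase A and Steap4 a metalloreductase; their KO minus WT differences after LPS were -0.35 (SE 0.07) and -0.41 (SE 0.08).

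By deviations the lists differed. Tmem252 was closest to Lcn2 (0.906), the NF-kB inhibitor Tnfaip3 (0.883), Steap4 (0.875), the chemokine Ccl11 (0.867) and the glycolytic regulator Pfkfb3 (0.852). Tgm2 was closest to the NF-kB inhibitor Nfkbia (0.898), the chemokine Ccl19 (0.879), Tagln2 (0.863), Sbno2 (0.86) and the mitochondrial fission gene Fis1 (0.844). Map3k8 was closest to the protease inhibitor Timp1 (0.812), the chemokine Ccl3 (0.768), the urokinase receptor Plaur (0.764), the nuclear receptor Ppara (0.754) and Tnfaip2 (0.75). Nfkbia, most like Tgm2 within groups, had an LPS effect of 1.35 in KO and 1.36 in WT, whereas that of Tgm2 was 0.62 in KO and 1.02 in WT. By this measure, among 19934 genes, Tgm2 was rank 35 and Map3k8 rank 113 for Tmem252. Tmem252 was rank 66 and Map3k8 rank 400 for Tgm2, and Tmem252 was rank 66 and Tgm2 rank 122 for Map3k8.

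Genes that act before Map3k8 in the TLR4 pathway changed in part. LPS raised 2 of 14 measured genes in KO and 3 of 14 in WT, and lowered none in either (limma). Among all genes it raised 1.08% in KO and 1.42% in WT. The LPS receptor partner Cd14 rose by 0.40 (SE 0.10, adjusted p = 0.0446, limma) in KO and 0.70 (SE 0.10, adjusted p = 7.96e-05) in WT. The kinase Irak2 rose by 0.33 (SE 0.04, adjusted p = 1.34e-05) in KO and 0.28 (SE 0.04, adjusted p = 9.34e-05) in WT. The adaptor Myd88 had 0.34 (SE 0.10, adjusted p = 0.102) in KO and rose by 0.63 (SE 0.10, adjusted p = 0.000156) in WT. The list median was -0.02 in KO and 0.02 in WT, against -0.01 for all genes in either genotype.

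Of the proteins that hold Map3k8, Nfkb2, a relative of the p105 gene, rose by 0.34 (SE 0.08, adjusted p = 0.0454, limma) in KO and 0.49 (SE 0.08, adjusted p = 0.000803) in WT. Tnip2, which encodes the ABIN2 subunit and was picked here after its values were seen, had -0.07 (SE 0.06) in KO and 0.04 (SE 0.06) in WT and was not called. Of 17 measured genes that act after Map3k8 or are induced by ERK, 1 rose in each genotype (all genes: 1.08% in KO, 1.42% in WT). This was Zfp36, which encodes the mRNA-destabilising protein tristetraprolin, with 0.52 (SE 0.12, adjusted p = 0.0251, limma) in KO and 0.68 (SE 0.12, adjusted p = 0.00118) in WT. The MEK genes Map2k1 and Map2k2 lay between -0.08 and -0.01 in the 2 genotypes. Among 19 other MAP3 kinases measured, Map3k6 rose by 0.46 (SE 0.07, adjusted p = 0.000208, limma) in KO and 0.68 (SE 0.07, adjusted p = 4.28e-07) in WT. Map3k1 had -0.19 (SE 0.07, adjusted p = 0.276, limma) in KO and fell by 0.25 (SE 0.07, adjusted p = 0.0451) in WT. No gene of these lists was called between KO and WT after LPS (limma). With an unadjusted p under 0.05 there were 2 of 14 upstream genes and 0 of 2 of the complex. There were also 5 of 17 downstream genes and 1 of 19 other kinases, against 11.4% of all genes. Lower in KO were 2 of these upstream genes, 4 of the downstream genes and the 1 kinase.

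**Figure D5:**
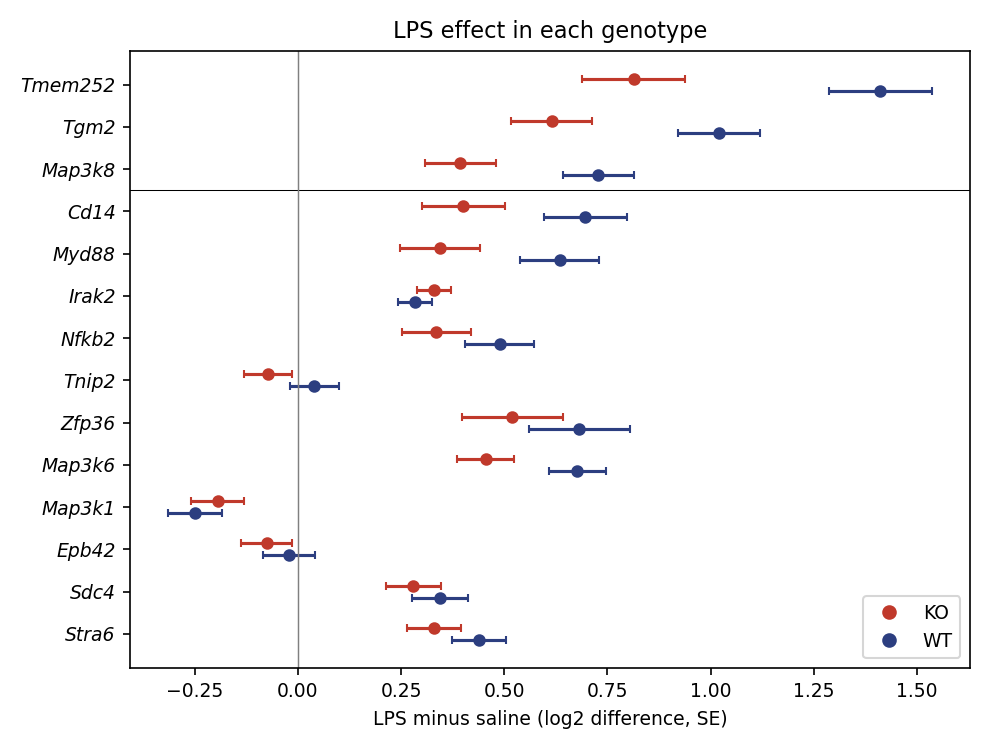
LPS effect (x axis, log2 difference with SE) in KO (red) and WT (blue) for Tmem252, Tgm2 and Map3k8, above the line, and below it for the list genes named in the text. Cd14, Myd88, Map3k6 and Zfp36 have WT effects of 0.63 to 0.70, near the 0.73 of Map3k8, and Tnip2, Map3k1 and Epb42 lie near or below 0.

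None of the other 8 transglutaminase family genes was called in any comparison (limma). With an unadjusted p under 0.05 there was 1, in KO against WT after LPS: Epb42, which encodes a red cell membrane protein, at -0.14 (SE 0.05, adjusted p = 0.363). Its LPS effects were -0.08 (SE 0.06) in KO and -0.02 (SE 0.06) in WT. Of 12 partners and substrates of transglutaminase 2, such as fibronectin (Fn1) and integrin subunits, 1 rose in each genotype (all genes: 1.08% in KO, 1.42% in WT). It was the heparan sulfate proteoglycan Sdc4, with 0.28 (SE 0.07, adjusted p = 0.0311, limma) in KO and 0.34 (SE 0.07, adjusted p = 0.00311) in WT. Tgm2 is a known target of retinoic acid. Of 16 measured genes of retinoid transport, synthesis and receptors, 1 rose in each genotype, the retinol transporter Stra6, with 0.33 (SE 0.07, adjusted p = 0.00464, limma) in KO and 0.44 (SE 0.07, adjusted p = 0.000109) in WT. None of these partners and retinoid genes was called between KO and WT after LPS (limma). An unadjusted p under 0.05 was seen there for 0 of 12 and 2 of 16, and for 11.4% of all genes. The 2 retinoid genes were lower in KO.

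For comparison, genes of IL-6 and STAT3 signalling and NF-kB targets were followed over the same arrays. Of 24 measured IL-6 and STAT3 genes, 5 rose in KO and 12 in WT after LPS (limma), and 1, Lcn2, was lower in KO than in WT after LPS. Among all genes 1.08% rose in KO and 1.42% in WT, and 0.0201% were called lower in KO than in WT after LPS. The median KO minus WT over these genes was -0.17, against -0.00245 over all genes. An unadjusted p under 0.05 was seen for 13 of the 24, all lower in KO, and for 11.4% of all genes. Both lists were drawn up with earlier results of these data known, so their counts and medians are descriptions and no independent test. The IL-6 and STAT3 list holds Lcn2, Osmr and Steap4, at ranks 1, 4 and 10 by KO minus WT after LPS among genes that LPS raised in WT. Osmr rose by 0.96 (SE 0.15, adjusted p = 0.000193, limma) in KO and 1.23 (SE 0.15, adjusted p = 4.2e-06) in WT, and Steap4 by 0.60 (SE 0.10) in KO and 0.80 (SE 0.10) in WT. Il4ra, the interleukin-4 receptor, rose by 0.30 (SE 0.06, adjusted p = 0.00366, limma) in KO and 0.38 (SE 0.06, adjusted p = 0.000192) in WT. Of 18 NF-kB targets, 9 rose in each genotype. Among them the adhesion molecules Icam1 and Vcam1 rose by 1.25 and 1.31 in KO and by 1.20 and 1.11 in WT, and Birc3, an inhibitor of apoptosis, by 0.68 in KO and 1.03 in WT. The median KO minus WT after LPS of the NF-kB targets was -0.07, and 0 were called (limma), with 5 of 18 at an unadjusted p under 0.05, 4 of them lower in KO.

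Markers of 11 cell types or tissues were set beside the 3 genes, as the mean of each list on each array. The endothelial list, genes of blood vessel lining, was -0.03 ± 0.05 (-0.11 to 0.05) in KO LPS, -0.08 ± 0.03 (-0.13 to -0.04) in WT LPS, 0.25 ± 0.05 (0.19 to 0.32) in KO saline and 0.21 ± 0.08 (0.14 to 0.28) in WT saline (SD and range). After LPS, 7 of 15 measured endothelial genes fell in KO, and 7 fell and 1 rose in WT (limma). Among all genes LPS lowered 0.256% in KO and 0.376% in WT. The 1 that rose was Robo4, by 0.29 (SE 0.07). Between KO and WT after LPS no endothelial gene was called (limma). An unadjusted p under 0.05 was seen there for 8 of 15, 4 of them lower in KO, and for 11.4% of all genes. Cldn5, the main claudin of the blood-brain barrier, lay at -0.10 ± 0.27 in KO LPS, -0.34 ± 0.15 in WT LPS, 0.98 ± 0.12 in KO saline and 0.80 ± 0.14 in WT saline (SD). Over the values of all 22 arrays, Cldn5 was near the opposite end from the 3 genes, with r of -0.883 for Tmem252, -0.886 for Tgm2 and -0.845 for Map3k8. With group means removed these were -0.197, -0.236 and -0.269. The part of endothelial cells in the results was not tested.

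Over all 22 arrays with group means removed, Tgm2 moved with markers of vessel wall cells. Its deviations correlated with the mean of 11 pericyte markers (r = 0.616, adjusted p = 0.0153; rho = 0.701, adjusted p = 0.00396, permutation test over 22 arrays) and of 8 perivascular fibroblast markers (r = 0.647, adjusted p = 0.0115; rho = 0.704, adjusted p = 0.00396). The p-values were adjusted over 33 relations, 3 genes with 11 lists, and no other relation passed. The permutations were within groups and did not keep array blocks, by which Tgm2 was called above. Without the 2 farthest arrays r was 0.688 and 0.67. In arrays 12 to 22 it was 0.494 and 0.36, and in arrays 1 to 11 it was 0.913 and 0.856. These values had the mean of each group within the block removed, and no test was run within blocks. The endothelial, microglia and astrocyte means had r of 0.749, 0.753 and 0.696 with Tgm2 in arrays 1 to 11. In arrays 12 to 22 these were -0.309, 0.0183 and 0.257. None of the 11 pericyte and 8 fibroblast genes was called between groups (limma). Among all genes LPS raised 1.08% in KO and 1.42% in WT and lowered 0.256% and 0.376%. In KO against WT after LPS, 0.0201% of all genes were called in each direction. There 1 pericyte gene, higher in KO, and 0 fibroblast genes had an unadjusted p under 0.05, against 11.4% of all genes. With so few genes these counts do not show that the groups were alike in these cells. The pericyte mean was -0.01 ± 0.05 (-0.08 to 0.07) in KO LPS and -0.03 ± 0.11 (-0.13 to 0.19) in WT LPS, and the fibroblast mean -0.002 ± 0.13 (-0.20 to 0.19) in KO LPS and -0.05 ± 0.21 (-0.30 to 0.27) in WT LPS (SD and range). With either mean as a term, chosen after the data were seen, KO minus WT of Tgm2 after LPS was -0.49 and -0.51, against -0.48 without.

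The genes next to Tmem252 were compared in the same way. The 3 measured before it were Fam189a2, Pip5k1b and Fam122a and the 3 after it Pgm5, Foxd4 and Cbwd1. None was called (limma); at an unadjusted p under 0.05 there were 0 for LPS in KO, 1 for LPS in WT, 2 for KO against WT after LPS and 1 after saline, where 5.84%, 6.42%, 11.4% and 5.17% of all genes were. The 2 were Fam189a2 (-0.13, SE 0.06, adjusted p = 0.397, limma) and Pip5k1b (-0.13, SE 0.05, adjusted p = 0.38), with lower values in KO, as had Tmem252. Their LPS effects were at most 0.115 in size in KO and 0.16 in WT, against 0.81 in KO and 1.41 in WT for Tmem252.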

How the data were processed

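The deposited table held log2 values of 28815 probe sets on 22 arrays, made by the authors with RMA (background correction, quantile normalization and probe summary), per the submitters' processing notes; its version, genome build and annotation are not given in the sources used here. Base 2 was assumed for the logarithm, since none is stated. The values showed a further step: the median of each probe set over the arrays was 0 to within 7.02e-07. Column medians lay between -0.01 and 0.03. Labelling used 200 ng of RNA, per the labels. Precision is limited by the number of arrays. No arrays held identical values.

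Gene names came from the platform annotation; 21780 had 1 symbol (21689 matched by gene ID in RefSeq, GRCm38.p6), 1605 several and 5430 none, and the last 2 kinds were left out. Averaging, in 998 genes, gave 19935 genes. Group means were fitted over all arrays with limma (version 3.58.1, R 4.3.3), with eBayes moderation, two-sided contrasts, Benjamini-Hochberg adjustment over all genes, and calls at an adjusted p under 0.05. Array block (arrays 1 to 11, arrays 12 to 22, by the number in the label) was a term in a further fit. Values of r within a block used deviations from the mean of each group in that block. Permutation tests (scipy 1.17.1, 100000 resamples within groups, or exact over 7 arrays) were two-sided. The code was tested on simulated data.

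The 3 genes and all gene lists were chosen with earlier results of these data known. Named list genes are up to 4 called members with the smallest p, or, where none was called, the 1 with the smallest p; for each of the 3 genes the 5 most alike by each measure are named. Centring removed levels, so no filter on dim genes was possible. Alternatives were leaving out each array, array block, array centring, quantile normalization, the groups of a contrast alone, robust moderation, array weights, and leaving out arrays with Ttr, Gh or Prl above 2. Other probe sets of the 3 genes were planned as an alternative, but each has 1. Marker means and the response score as terms were added after seeing the data. Replicates were numbered in deposition order and pair no arrays.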

Additional observations from a re-analysis of the deposited data

Results flagged for a closer look

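Map3k8 in WT saline replicate 2, at -0.0928, lay far above the other 3 WT saline arrays, the nearest of which was at -0.33. The gap was 0.988 of the group's range, against Dixon's 95% critical value of 0.829 for 4 arrays. Of 16 groups examined (4 genes, Il6 included, in 4 groups) this was the 1 that passed; chance alone flags about 1 in 20 groups. Without this array the Map3k8 LPS effect in WT was 0.79, against 0.73 with it.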

How the results depend on the processing

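KO minus WT after LPS kept its sign for Tmem252, Tgm2 and Map3k8 in every alternative run. The genes were chosen by this difference and the runs reuse the same arrays, so the kept sign is a description. Leaving out single arrays moved the difference between -0.74 and -0.59, -0.54 and -0.42, and -0.46 and -0.39, in that gene order. The count of genes called in that comparison, 8 over all arrays, depended on the setting: 2 with array block as a term, 0 in arrays 1 to 11 alone, 0 in arrays 12 to 22 alone, 614 with array weights, 16 with quantile normalization, 1 with the LPS groups alone, 1 without the 6 arrays with high Ttr, Gh or Prl, 21 with the pericyte mean, 26 with the fibroblast mean and 4 with the response score as a term. Leaving out 1 array gave 2 (without KO LPS replicate 6) to 47 (without KO LPS replicate 1). After saline, 1 gene was called over all arrays, against 0 in either block alone, with the saline groups alone, with quantile normalization and without the 6 arrays, and 0 to 2 when 1 array was left out. Genes called for LPS in KO, 267 in all, numbered 145 in arrays 1 to 11 and 166 in arrays 12 to 22, and for LPS in WT, 359 in all, 45 in arrays 12 to 22. In arrays 1 to 11 the LPS effect in KO was 1.04 for Tmem252 and 0.72 for Map3k8, and the Map3k8 interaction -0.0049; with quantile normalization the Tmem252 LPS effect in KO was 0.54. The array block difference of Tgm2 ranged from -0.23 to -0.16 when 1 array was left out, and that of Map3k8, never called, from -0.0932 to 0.0041. The uncalled KO minus WT difference after saline turned to 0.0376 for Map3k8 in arrays 12 to 22 and to 0.0293 for Tgm2 with array block as a term. Single blocks hold fewer arrays; otherwise the cause was not tested. No paired analysis was possible because the labels number arrays through the whole series and pair none.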
